A study of Mus musculus with 16 samples.

Results

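Slco1a5, Tph1, Hsd11b1, Adssl1, Nrgn, Plxnc1, Cpeb4, Tox, Foxf2 and Gm36120 are 10 of the 50686 genes counted in mouse leukaemic B-cell lines treated with the kinase inhibitor Senexin B. They were picked because their RNA moved in a steady direction when each treated line was set against its own DMSO culture, so their changes with Senexin B are described here without a test. All 10 passed the filter on low counts over the 16 libraries, which 14164 genes passed. The other results concern what that choice did not use: the difference between genotypes, the genes next to them on the chromosome, and genes of the same pathways.

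RNA was sequenced from 8 cell lines, each with 1 DMSO library and 1 library after 48 h with 1 µM Senexin B. The lines were grown from bone marrow of C57BL/6N mice after infection with a retrovirus carrying BCR-ABL1p185, and every line in all 4 groups carries this oncogene. The 4 lines labelled wildtype (here wt, the Cdk8fl/fl controls of the study) keep Cdk8. In the 4 lines labelled Cdk8 knockout (here Cdk8ko, Cdk8Δ/Δ Vav-Cre), Cre driven by the Vav promoter deleted the floxed gene in blood-forming cells. Cdk19 was not deleted in either genotype, and the age of the mice behind each line is not in the labels. Each line grew from separately transformed marrow, so lines of 1 genotype differ in more than treatment.

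Senexin B inhibits CDK8 and CDK19, related kinases that bind the Mediator complex in place of each other, through which transcription factors act on RNA polymerase II. Kinase and Mediator sit at many promoters and enhancers, and inhibiting them can raise or lower a gene. The 10 genes are better known outside the B lineage: they include an organic anion transporter, enzymes of serotonin, glucocorticoid and purine metabolism, a synaptic calmodulin-binding protein, a semaphorin receptor, an RNA-binding protein, a pair of transcription regulators and a long intergenic non-coding RNA.

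The libraries held between 13145876 and 18349425 counted reads. The early B-lineage markers Cd79a, Cd79b, Vpreb1, Igll1, Ebf1, Pax5, Blnk, Ptprc and Spn had at least 917 counts in every library, so defining markers of the labelled cell type were present. Ebf1 alone ran from 695 to 1286 CPM (reads of a gene per 1000000 counted reads, scaled between libraries by TMM) over the 16 libraries. The summed level of 7 T-cell markers ran from 17.6 to 135 CPM, nearly all of it Lck, that of 7 myeloid markers from 0.441 to 24.8 CPM, of which Lyz2 made up to 24.6, and that of 5 erythroid markers from 0.268 to 1.72 CPM. The summed level of 8 mast cell and basophil markers did not pass 2.65 CPM, that of 8 stromal and endothelial markers 2.31 CPM, and that of 5 megakaryocyte and platelet markers 3.29 CPM in any library, with Tpsb2, Mcpt4, Ms4a2, Fcer1a, Col3a1, Pdgfra and Pf4 at 0 counts throughout. Cdk8 itself ran from 61.8 to 68.7 CPM in the wt DMSO libraries and from 35.3 to 52.1 CPM in the Cdk8ko DMSO libraries, ranges that did not overlap, and from 55.2 to 89.4 and 41.2 to 61.7 CPM with Senexin B, ranges that did. Cdk8 RNA was thus present in the libraries labelled Cdk8 knockout, from lines in which the study describes the CDK8 protein as absent. A gene-level count also takes in reads from exons outside a deletion, and where in Cdk8 these reads lie was not tested. Cdk19 ran from 144 to 193 CPM in the Cdk8ko DMSO libraries.

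Promoter windows of 300 bases, from 250 before to 50 after an annotated start, were available from RefSeq (GRCm38.p6) for 9 of the 10 genes, in 11 windows. The windows below belong to Slco1a5, which had the largest mean change in wt lines and 2 annotated starts, to the 3 genes that were lower with Senexin B, and to Nrgn, whose nearest neighbour is taken up further on. They are written 5′ to 3′ on the gene's strand, with matches in capitals. The letters searched on either strand were TATAAA (the TATA box), CANNTG (the E-box, of which CACGTG is a part), TTCNNNGAA (the STAT core), TGACGTCA (the cyclic AMP response element) and GGGCGG (the GC box).
Slco1a5, chr6:142322932-142323231, minus strand: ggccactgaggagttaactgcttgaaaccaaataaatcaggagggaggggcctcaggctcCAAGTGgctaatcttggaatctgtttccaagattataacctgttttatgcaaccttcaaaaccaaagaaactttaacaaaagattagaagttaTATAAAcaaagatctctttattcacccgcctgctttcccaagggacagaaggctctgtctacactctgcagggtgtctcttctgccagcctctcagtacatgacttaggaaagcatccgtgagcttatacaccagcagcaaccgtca
Slco1a5, chr6:142278825-142279124, minus strand: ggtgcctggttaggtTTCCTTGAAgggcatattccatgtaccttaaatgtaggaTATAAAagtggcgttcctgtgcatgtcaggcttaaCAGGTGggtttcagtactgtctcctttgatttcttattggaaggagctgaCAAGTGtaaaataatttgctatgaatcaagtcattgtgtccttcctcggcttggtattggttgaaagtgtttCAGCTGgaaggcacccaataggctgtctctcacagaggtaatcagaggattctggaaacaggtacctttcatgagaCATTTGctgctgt
Nrgn, chr9:37552696-37552995, minus strand: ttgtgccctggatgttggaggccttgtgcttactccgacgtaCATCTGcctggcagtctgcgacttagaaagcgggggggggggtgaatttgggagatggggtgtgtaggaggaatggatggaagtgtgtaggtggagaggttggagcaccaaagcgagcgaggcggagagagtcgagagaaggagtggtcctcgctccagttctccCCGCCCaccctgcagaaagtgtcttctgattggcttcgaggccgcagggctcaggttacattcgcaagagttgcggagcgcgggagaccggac
Hsd11b1, chr1:193242311-193242610, minus strand: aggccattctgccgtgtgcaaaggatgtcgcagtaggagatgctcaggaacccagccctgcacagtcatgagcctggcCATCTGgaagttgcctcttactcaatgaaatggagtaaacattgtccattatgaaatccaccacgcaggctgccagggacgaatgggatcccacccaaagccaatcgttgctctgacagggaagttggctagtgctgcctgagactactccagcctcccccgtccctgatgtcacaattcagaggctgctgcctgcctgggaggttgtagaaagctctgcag
Plxnc1, chr10:94944796-94945095, minus strand: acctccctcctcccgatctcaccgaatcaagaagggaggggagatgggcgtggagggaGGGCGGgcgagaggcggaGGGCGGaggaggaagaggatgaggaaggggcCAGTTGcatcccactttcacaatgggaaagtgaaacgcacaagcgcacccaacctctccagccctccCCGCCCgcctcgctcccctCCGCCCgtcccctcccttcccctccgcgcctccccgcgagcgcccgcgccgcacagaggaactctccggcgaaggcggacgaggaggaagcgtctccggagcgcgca
Cpeb4, chr11:31870690-31870989, plus strand: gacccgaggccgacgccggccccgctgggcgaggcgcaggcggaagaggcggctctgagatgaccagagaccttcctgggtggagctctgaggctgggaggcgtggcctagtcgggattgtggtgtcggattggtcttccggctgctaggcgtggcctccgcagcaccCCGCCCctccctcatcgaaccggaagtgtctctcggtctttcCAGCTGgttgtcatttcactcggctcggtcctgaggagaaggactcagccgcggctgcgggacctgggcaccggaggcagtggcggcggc

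Slco1a5 was the only 1 of the 9 genes with a TATAAA match, and both of its windows held it, 97 and 196 bases before the start. Whether these letters act as a TATA box at that distance was not tested. Over all 32851 windows in the table, 13.6% held TATAAA. Its second window was also the only 1 of the 11 with TTCNNNGAA, held by 8.30% of all windows. GGGCGG was found for Tph1, Nrgn, Plxnc1, Cpeb4, Adssl1 and Foxf2, in 6 of 11 windows, against 35.7% of all windows. CANNTG was in 10 of 11 windows against 72.3% of all, and CACGTG and TGACGTCA were in none of the 11, against 7.15% and 1.79%. Of the 3 lower genes, Plxnc1 and Cpeb4 held GGGCGG and Hsd11b1 did not, and the higher genes were mixed in the same way. G and C made up 43.3% to 71.3% of the bases, with a median of 58.0% against 52.7% over all windows.

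With Senexin B, 7 of the 10 genes were higher on average and 3 (Hsd11b1, Plxnc1 and Cpeb4) were lower. The direction was the same in all 8 lines for 5 of them, Slco1a5, Tph1, Plxnc1, Cpeb4 and Foxf2, where 4.55% of the 14164 genes moved in 1 direction throughout. Since the genes were chosen for this steadiness, nothing is read from that count. In the wt lines no gene went against its mean direction, and Gm36120 had 0 counts in both libraries of line 1. In such bulk libraries, a change in RNA per cell and a change in the share of cells that hold the RNA cannot be told apart. In the Cdk8ko lines, Hsd11b1, Adssl1 and Gm36120 went the other way in line 1, and Nrgn and Tox did so in line 2.

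**Figure D1:**
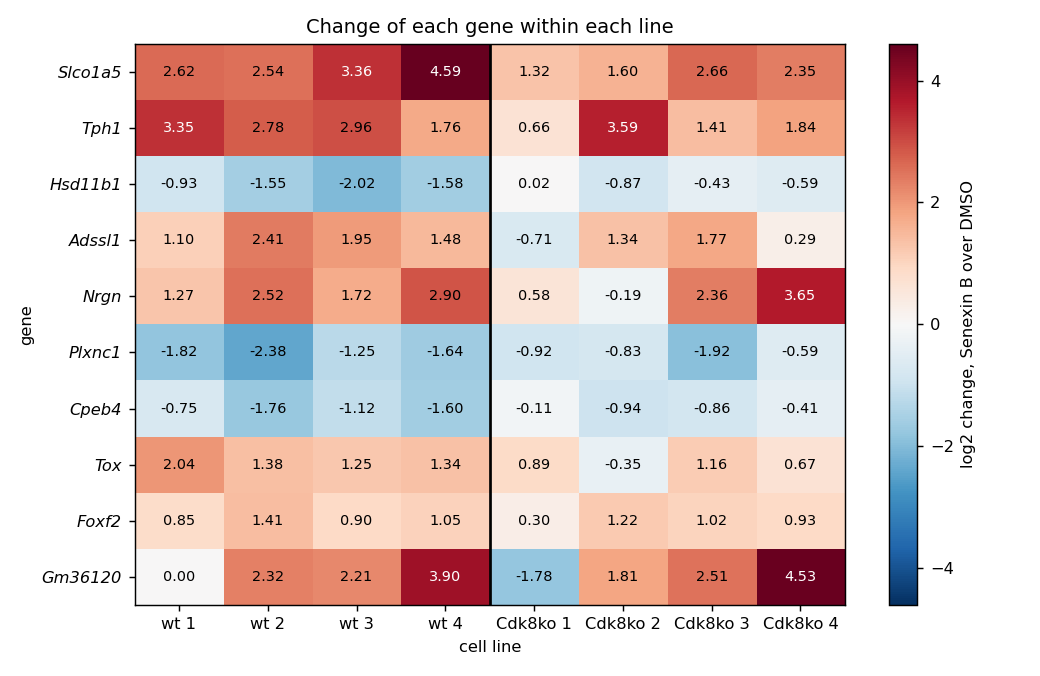
Log2 change of each of the 10 genes (rows) within each of the 8 lines (columns), Senexin B over its own DMSO library, computed from log2 CPM with a prior count of 2. Red cells are higher and blue cells lower with Senexin B, and the values run from -2.38 (Plxnc1, wt line 2) to 4.59 (Slco1a5, wt line 4).

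Slco1a5 (chr6:142234227-142322981, GRCm38, minus strand) encodes a membrane transporter that takes up bile acids, steroid conjugates and other organic anions. In the wt lines its level went from 6.47 to 40.4 CPM in line 1, from 2.14 to 13.1 in line 2, from 1.93 to 21 in line 3 and from 0.350 to 11.4 in line 4. In the Cdk8ko lines it went from 0.499 to 1.44 CPM, from 2.38 to 7.49, from 3.30 to 21.5 and from 6.85 to 35.5 in lines 1 to 4. All 8 lines were higher, and in the wt lines the lowest treated library lay above the highest DMSO library. The mean log2 change was 3.28 ± 0.95 (SD, n = 4 lines) in wt and 1.98 ± 0.63 in Cdk8ko, which is 9.70-fold and 3.95-fold. Of the 50-base stretches of its transcripts, 3.56% also occur in other genes, mostly Slco1a4, Slco1a1 and Slco1a6, of which Slco1a1 had 0 counts in every library and Slco1a4 at most 2.

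Tph1 (chr7:46644641-46672537, minus strand) encodes tryptophan hydroxylase, which catalyses the rate-limiting step of serotonin synthesis outside the brain. In wt it went from 0.405 to 5.33 CPM in line 1, from 0.378 to 3.36 in line 2, from 1.72 to 14.2 in line 3 and from 0 to 0.308 in line 4, where it had 0 and 4 counts. In Cdk8ko it went from 0.0624 to 0.172 CPM in line 1, which were 1 and 3 counts, from 5.33 to 65.4 in line 2, from 1.59 to 4.43 in line 3 and from 1.25 to 4.81 in line 4. Line 2 of Cdk8ko therefore had the highest level in DMSO, the highest level with Senexin B and the largest change, 3.59 on the log2 scale. Averaged over lines, the log2 change was 2.71 ± 0.68 in wt and 1.87 ± 1.24 in Cdk8ko, and 2.28 ± 1.15 over the 3 Cdk8ko lines above the floor of 3 counts.

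Hsd11b1 (chr1:193221634-193264075, minus strand) encodes the reductase of the endoplasmic reticulum that turns inactive glucocorticoid back into active hormone. The wt lines went from 17.2 to 9.0 CPM in line 1, from 28.4 to 9.58 in line 2, from 34.2 to 8.35 in line 3 and from 22.4 to 7.39 in line 4. In Cdk8ko, line 1 was at 19 CPM in DMSO and 19.3 with Senexin B, while lines 2 to 4 went from 7.27 to 3.92, from 4.45 to 3.28 and from 5.01 to 3.27. The wt groups did not overlap, and the 4 treated wt libraries lay close together, between 7.39 and 9.58 CPM. On the log2 scale the mean change was -1.52 ± 0.45 in wt and -0.47 ± 0.37 in Cdk8ko. Cdk8ko lines 2 to 4 were in DMSO already below the lowest treated wt library. Lamb3, 4930570N18Rik and Gm38118 overlap its span, with 0 exonic bases shared.

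Adssl1 (chr12:112620045-112641354, plus strand) encodes the adenylosuccinate synthetase of muscle, an enzyme of AMP synthesis in the purine nucleotide cycle. In wt it went from 12.2 to 26.2 CPM, from 2.77 to 15.2, from 2.74 to 10.9 and from 8.19 to 23.0 in lines 1 to 4. The Cdk8ko lines went from 14.7 down to 8.91 CPM in line 1, and up from 15.9 to 40.4, from 7.05 to 24.3 and from 6.77 to 8.29 in lines 2 to 4. The lines with the lowest wt DMSO levels, 2 and 3, had the largest wt changes. The mean log2 change was 1.73 ± 0.57 in wt, 0.67 ± 1.11 in Cdk8ko, and 1.13 ± 0.76 in Cdk8ko without line 1.

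Nrgn (chr9:37544492-37552904, minus strand) encodes neurogranin, a small protein of neurons that holds calmodulin when calcium is low. The wt lines went from 17.9 to 43.4 CPM in line 1, from 0.818 to 5.32 in line 2, from 0.268 to 1.18 in line 3 and from 0.910 to 7.62 in line 4. Its Cdk8ko levels went from 0.187 to 0.345 CPM in line 1, which were 3 and 6 counts, from 2.44 to 2.13 in line 2, from 17.2 to 89.0 in line 3 and from 1.18 to 16.3 in line 4. Its level was thus far higher in wt line 1 and Cdk8ko line 3 than elsewhere under DMSO. Averaged over lines, the log2 change was 2.10 ± 0.74 in wt and 1.60 ± 1.73 in Cdk8ko, where single lines ran from -0.19 to 3.65.

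Plxnc1 (chr10:94790866-94944835, minus strand) encodes plexin C1, the receptor of semaphorin Sema7a. In wt it went from 8.21 to 2.23 CPM, from 9.50 to 1.72, from 9.49 to 3.91 and from 12.5 to 3.93 in lines 1 to 4. In Cdk8ko it went from 9.11 to 4.77 CPM, from 8.14 to 4.54, from 3.81 to 0.910 and from 14.6 to 9.62. All 8 lines were lower, and the wt groups did not overlap. On the log2 scale the mean change was -1.77 ± 0.47 in wt and -1.06 ± 0.59 in Cdk8ko. It shares 1.38% of its exonic bases with Gm48718, where reads cannot be told apart.

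Cpeb4 (chr11:31872211-31935634, plus strand) encodes a protein that binds the cytoplasmic polyadenylation element of messenger RNAs and sets their translation. The wt lines went from 22.5 to 13.3 CPM, from 47.1 to 13.8, from 26.4 to 12.1 and from 51.3 to 16.9 in lines 1 to 4. The Cdk8ko lines went from 37.1 to 34.4 CPM in line 1, from 22.6 to 11.7 in line 2, from 21.8 to 12.0 in line 3 and from 23.6 to 17.7 in line 4. The wt DMSO levels lay at 22.5 and 26.4 or at 47.1 and 51.3 CPM, whereas all 4 treated wt libraries lay between 12.1 and 16.9. The mean log2 change was -1.31 ± 0.46 in wt, -0.58 ± 0.39 in Cdk8ko, and -0.74 ± 0.29 in Cdk8ko without line 1.

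**Figure D2:**
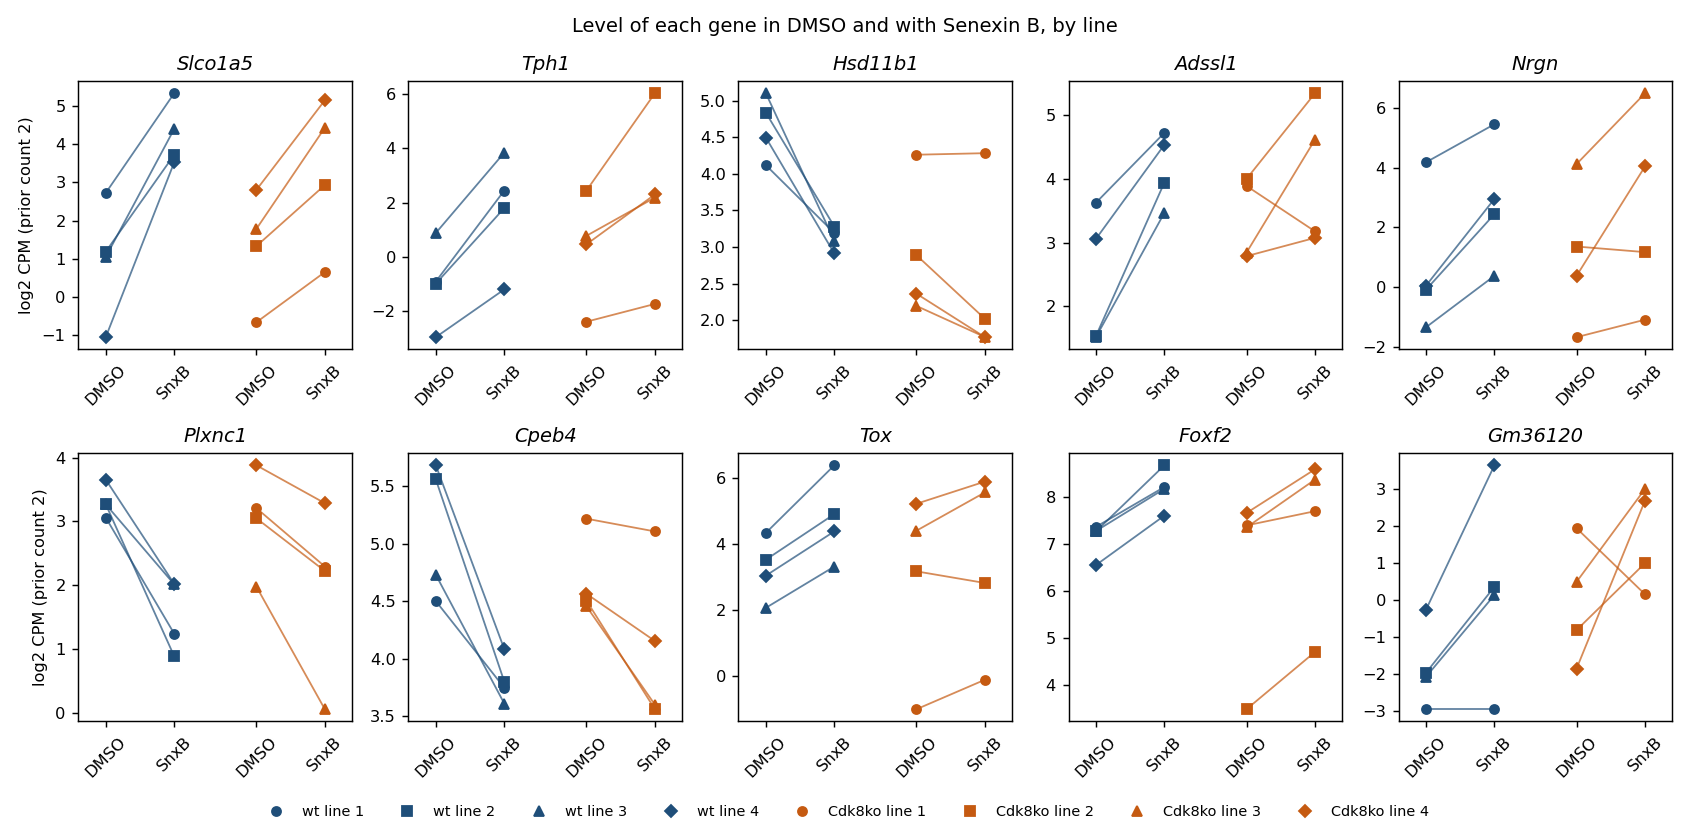
Level of each gene in DMSO and with Senexin B (SnxB), as log2 CPM with a prior count of 2, with 1 line drawn per cell line, wt in blue and Cdk8ko in orange. The treated wt libraries of Hsd11b1 and Cpeb4 draw together, between 7.39 and 9.58 CPM and between 12.1 and 16.9 CPM, and Foxf2 in Cdk8ko line 2 sits far below the other lines but moves in parallel with them.

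Tox (chr4:6686353-6991557, minus strand) encodes a nuclear DNA-binding protein of the HMG-box family, known from T-cell development and T-cell exhaustion. In wt it went from 20.1 to 83.0 CPM in line 1, from 11.4 to 29.8 in line 2, from 4.08 to 9.85 in line 3 and from 8.12 to 20.7 in line 4. Its Cdk8ko levels went from 0.374 to 0.805 CPM in line 1, which were 6 and 14 counts, from 8.90 down to 6.94 in line 2, and up from 21 to 47.0 and from 37.0 to 59.0 in lines 3 and 4. The DMSO level differed 99-fold between the lowest and the highest of the 8 lines, both Cdk8ko. Averaged over lines, the log2 change was 1.5 ± 0.37 in wt and 0.59 ± 0.66 in Cdk8ko. Of the T-cell markers, Cd3g had 0 counts in every library, Cd3e, Cd4 and Cd8a at most 1 and Cd3d at most 4. Trac reached 31 counts (1.66 CPM), and Lck ran from 17.5 to 133 CPM. The mean log2 change with Senexin B was 1.51 in wt and 0.18 in Cdk8ko for Trac, and 0.54 and -0.01 for Lck. Tox shares 3.42% of its exonic bases with Gm11802, where reads cannot be told apart.

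Foxf2 (chr13:31625816-31631403, plus strand) encodes a forkhead transcription factor of mesenchymal cells. It had the smallest SD of the change over the 8 lines of the 10 genes. The wt lines went from 164 to 296 CPM, from 154 to 408, from 155 to 288 and from 93.5 to 194 in lines 1 to 4. In Cdk8ko it went from 168 to 207 CPM in line 1, from 11 to 25.9 in line 2, from 163 to 331 in line 3 and from 202 to 385 in line 4. Line 2 of Cdk8ko stood 18.3-fold below line 4 in DMSO, yet its log2 change of 1.22 lay within the range of the wt lines, 0.85 to 1.41. On the log2 scale the mean change was 1.05 ± 0.25 in wt, 0.87 ± 0.40 in Cdk8ko, and 1.06 ± 0.15 in Cdk8ko without line 1, where it was 0.30. It shares 4.15% of its exonic bases with Gm27516, where reads cannot be told apart.

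Gm36120 (chr9:83678081-83687525, minus strand) is annotated as a long intergenic non-coding RNA. It was at 0 counts in both libraries of wt line 1. In the other wt lines it went from 0.126 to 1.15 CPM, from 0.107 to 0.964 and from 0.700 to 12.2, where the first DMSO values were 2 counts each. The Cdk8ko lines went down from 3.68 to 0.977 CPM in line 1, and up from 0.439 to 1.86, from 1.27 to 7.83 and from 0.147 to 6.27 in lines 2 to 4. Line 1 of Cdk8ko, with the highest DMSO level of the 8 lines, was thus the only line in which it was lower. The mean log2 change was 2.81 ± 0.94 over the 3 wt lines with counts and 1.77 ± 2.63 over the 4 Cdk8ko lines. These few counts limit how well its folds are known.

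Levels of different genes are compared per length, as RPKM, the CPM divided by the exonic length in kilobases. In wt DMSO libraries Foxf2 had a mean of 59.9 RPKM and a lowest library of 39.6, above the highest library of every other gene of the set. Hsd11b1 followed at 6.01 and Cpeb4 at 5.78 RPKM, with ranges that overlapped, and Gm36120 and Tph1 were last at 0.135 and 0.101 RPKM. With Senexin B the wt order became Foxf2 at 126, Adssl1 at 10.1, Nrgn at 9.90, Slco1a5 at 5.77 and Tox at 4.71 RPKM, with Hsd11b1 at 2.02 and Plxnc1 last at 0.353 RPKM. Slco1a5 thus moved from rank 8 to rank 4 and Hsd11b1 from rank 2 to rank 8. In Cdk8ko, Foxf2 again came first at 57.6 RPKM in DMSO and 100 with Senexin B, followed by Adssl1 at 5.96 in DMSO and Nrgn at 18.6 with Senexin B, and Tph1 at 0.333 and Plxnc1 at 0.594 were last. Below Foxf2, each gene overlapped in range with the next in all 4 groups, and in Cdk8ko Foxf2 did too.

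**Figure D3:**
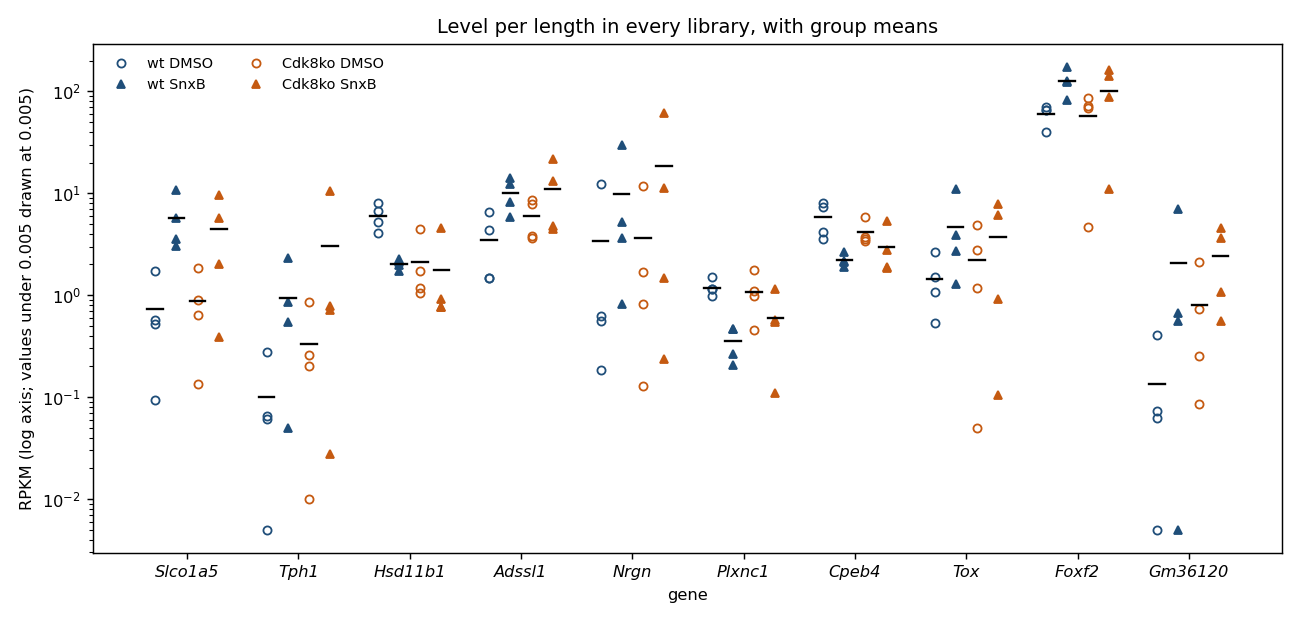
Level per length in every library as RPKM on a log axis, with open circles for DMSO, triangles for Senexin B, wt in blue, Cdk8ko in orange and black bars for the mean of 4 libraries. Foxf2 lies highest, at a mean of 59.9 RPKM in wt DMSO and 126 with Senexin B, and the points of Nrgn, Tox, Tph1 and Gm36120 spread widely between lines.

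The spread between lines was wide beside the change with Senexin B. In DMSO, the highest of the 8 lines exceeded the lowest 2.35-fold for Cpeb4, 3.83-fold for Plxnc1, 5.79-fold for Adssl1, 7.69-fold for Hsd11b1, 18.3-fold for Foxf2 and 19.6-fold for Slco1a5. For Foxf2 the SD of the log2 level over the 8 DMSO libraries was 1.38, while the SD of the change over the 8 lines was 0.32. The change was also steadier than the level for Slco1a5, Tph1, Nrgn, Hsd11b1 and Tox, but not for Plxnc1, Cpeb4, Adssl1 and Gm36120. Since the genes were chosen for a steady change, these SDs are a description and nothing is read from them. A gene was called where the Benjamini-Hochberg adjusted p was under 0.05 and the fold over 2. Without the line as a block, a term that sets each treated library against the DMSO library of its own line, edgeR's quasi-likelihood test called 0 genes with Senexin B in wt lines (493 at an unadjusted p under 0.05, and 19 called by DESeq2), 0 in Cdk8ko lines (243, and 0) and 0 over the 8 lines (688, and 17). With the line as a block it called 45 genes in wt (0.346% of those tested), 7 in Cdk8ko (0.0527%) and 134 over the 8 lines (0.946%). The 45 took in all 10 genes described here, the 7 Slco1a5 alone, and the 134 Slco1a5, Tph1, Nrgn, Hsd11b1, Plxnc1 and Tox. These counts come from the contrast that chose the genes and are given as a description. P-values from fits with the line as a block set the change against its variation from line to line. Those without the block set a difference against the spread between the libraries, or line sums, of a group. All of them come from these 8 lines alone.

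The next question was whether loss of CDK8 changes the effect of the inhibitor. The mean of the within-line changes was smaller in size in Cdk8ko than in wt lines for all 10 genes. In the edgeR fits without the line as a block this did not hold for Nrgn, with 1.54 ± 1.43 (SE) in wt and 2.36 ± 1.70 in Cdk8ko. Without Cdk8ko line 1 the mean of the within-line changes was not smaller in Cdk8ko for Gm36120, at 2.95 against 2.11 in wt. The same was so for Foxf2, at 1.056 against 1.052. Because every 1 of the 10 is among the wt calls, their wt changes were chosen to be large, and a smaller value in the other genotype can follow in part from that choice. The difference in log2 change, Cdk8ko minus wt, was 1.05 ± 0.29 (SE, 4 lines against 4) for Hsd11b1, 0.73 ± 0.30 for Cpeb4, 0.71 ± 0.38 for Plxnc1, -0.91 ± 0.38 for Tox, -1.06 ± 0.62 for Adssl1 and -1.30 ± 0.57 for Slco1a5. It was smaller beside its error for Tph1 at -0.84 ± 0.71, Nrgn at -0.50 ± 0.94, Gm36120 at -0.34 ± 1.54 (with wt line 1, at 0 counts in both libraries, taken as a change of 0) and Foxf2 at -0.18 ± 0.23. For Nrgn its sign was not settled, since the edgeR interaction was 0.83 ± 2.30 without the block and -0.13 ± 0.76 with it. The changes of the 2 genotypes did not overlap for Hsd11b1 and Tox (2.07% of all genes), from which nothing is read, since these changes chose the genes.

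Tested over all genes, the interaction of genotype and Senexin B was called for 0 of 14164 genes by edgeR's quasi-likelihood test (67 at an unadjusted p under 0.05) and 0 with the line as a block (459). DESeq2 called 0 without the block (111) and 0 with it (396). A difference between genotypes was thus not shown for any of the 10. The 35 other genes called in wt with the block, chosen on wt lines in the same way, also had smaller changes in Cdk8ko. Signed by their wt direction, their median log2 change was 1.52, 1.79, 1.88 and 1.75 in wt lines 1 to 4 and 0.71, 0.90, 1.06 and 1.01 in Cdk8ko lines 1 to 4. As for the 10, smaller Cdk8ko values can follow in part from that choice, so nothing is read from this likeness. Cdk8ko line 1, which went against the mean direction for 3 of the 10, also had the smallest of these medians. Without both of its libraries, the 8-line mean log2 change moved from 1.20 to 1.47 for Adssl1 and from -0.99 to -1.14 for Hsd11b1.

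**Figure D4:**
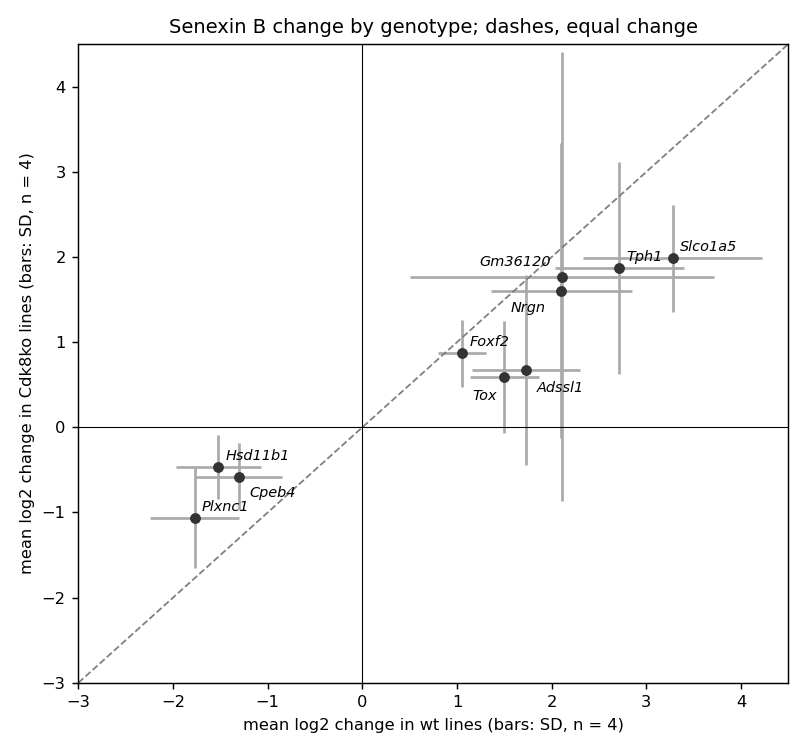
Mean log2 change with Senexin B in the 4 wt lines (x axis) and the 4 Cdk8ko lines (y axis) for the 10 genes, with bars of 1 SD over the lines and a dashed line of equal change. All 10 points lie nearer to 0 on the y axis than on the x axis, with Foxf2 (1.05 and 0.87) closest to the dashed line.

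The difference between genotypes, which did not enter the choice of the genes, was compared over the sum of the 2 libraries of each line. Each sum holds 1 DMSO and 1 Senexin B library, so it mixes the difference without and with the inhibitor. None of the 10 was called by edgeR's quasi-likelihood test, which called 1 of 14791 genes (0.00676%), or by DESeq2, which called 24. The groups of line sums did not overlap for 0 of the 10 (1.31% of all genes). On the log2(CPM + 1) scale the largest difference was that of Hsd11b1, with 17.6 ± 3.92 CPM in wt and 8.21 ± 7.38 CPM in Cdk8ko line sums (SD, n = 4), a log2(CPM + 1) difference of -1.27 with an exact permutation p of 0.0857 (two-sided, not adjusted, 1 of 10 such comparisons). Over all genes tested, its adjusted p by edgeR was 0.999. The smallest p that 4 lines against 4 allow is 0.0286, and the exact permutation p of the other 9 ran from 0.286 (Gm36120) to 0.83 (Nrgn and Plxnc1). The order depended on the scale: in the edgeR fit of line sums Tph1 had a log2 fold change of 1.68 ± 1.48 and Hsd11b1 -1.10 ± 0.54, and on log2(CPM + 0.1) Gm36120 differed by 1.86 and Hsd11b1 by -1.40.

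In the DMSO libraries alone, 9 of the 10 passed the low-count filter (Gm36120 did not), and none was among the calls, 1 of 13174 genes (0.00759%) by edgeR and 32 by DESeq2. Hsd11b1 was lower in Cdk8ko by a log2 fold change of -1.52 ± 0.48 (SE), with an adjusted p of 0.897 (edgeR). With Senexin B the same comparison gave -0.20 ± 0.60 for Hsd11b1, with 0 of 13010 genes called (202 at an unadjusted p under 0.05, and 10 by DESeq2, with none of the 10 among them). For Hsd11b1 the wt DMSO libraries, at 17.2 to 34.2 CPM, thus lay above Cdk8ko lines 2 to 4, at 4.45 to 7.27 CPM, while Cdk8ko line 1 at 19 CPM lay among the wt values. Tph1 was higher in Cdk8ko by 1.69 ± 1.20 in DMSO and 1.67 ± 1.48 with Senexin B, and Foxf2 differed by -0.06 ± 0.67 and -0.32 ± 0.65. Slco1a5 differed by 0.26 ± 0.90 and -0.39 ± 0.82. With 4 lines a group, even the DMSO difference of Hsd11b1 did not pass. The SEs in DMSO ran from 0.31 (Cpeb4) to 1.52 (Nrgn), and the size of difference that could be detected was not tested. The lack of a call therefore does not show equal levels in the 2 genotypes.

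Genes next to the 10 were looked at for changes that run along the chromosome. Within 100 kb, 32 genes passed the filter, next to 9 of the 10 (Tox had none). With the line as a block over the 8 lines, 1 of the 32 was called (3.12%, against 0.946% of all genes). It was 1700018A04Rik, on the strand opposite to Foxf2 and 43303 bases from it. It went from 0.0578 to 1.44 CPM, from 0.315 to 2.46, from 1.29 to 2.41 and from 0.280 to 1.39 in wt lines 1 to 4, and from 0.686 to 0.920, from 0 to 0.413, from 1.78 to 6.01 and from 1.99 to 7.66 in the Cdk8ko lines. All 8 lines were higher, as for Foxf2, by a log2 fold change of 1.88 ± 0.34 (SE), adjusted p = 0.0157 by edgeR's quasi-likelihood test. The call held when each line was left out in turn, with adjusted p between 0.00831 and 0.0471. Counts were few, with 28 at most in a DMSO library, and without the block the adjusted p was 0.854.

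Other neighbours moved less or less surely. Of the 32, 5 moved in the direction of the gene beside them in all 8 lines (15.6%) and 0 moved against it in all 8. Among all genes, 1.96% were higher and 2.59% lower in all 8 lines. The 5 were 1700018A04Rik, Camk1g and Gm38118 beside Hsd11b1, Pyroxd1 beside Slco1a5 and Saal1 beside Tph1. They were named for this count after their values were seen, and neighbours of 1 gene are not independent of each other. Camk1g, a calmodulin-dependent kinase 82271 bases from Hsd11b1, had a log2 fold change of -0.78 ± 0.17 and an adjusted p of 0.0339 by edgeR, but its fold was under 2. Its adjusted p ran from 0.0355 to 0.0916 with each line left out. Gm38118 lies inside Hsd11b1 on the same strand, where unspliced Hsd11b1 reads cannot be told apart from it, and had a log2 fold change of -0.70 ± 0.19 (adjusted p = 0.0889 by edgeR). Lamb3 and 4930570N18Rik, which overlap Hsd11b1 on the opposite strand, had 0.06 ± 0.14 and -0.40 ± 0.14. Pyroxd1 and Recql beside Slco1a5 had 0.47 ± 0.11 and 0.08 ± 0.07, and Saal1 had 0.30 ± 0.07.

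Vsig2, the gene of a membrane protein with immunoglobulin domains, lies on the opposite strand to Nrgn, and their 3′ ends are 287 bases apart. The counting used no strand, so reads that ran past the end of either gene could not be kept apart from the other. Vsig2 was of all 14164 genes the one whose log2 CPM ran closest to that of Nrgn, with a Pearson r of 0.90 over the 16 libraries. It had 18 and 23 counts in wt line 1, 5 and 69 in Cdk8ko line 3, 3 and 12 in Cdk8ko line 4, 8 and 5 in Cdk8ko line 2, and at most 3 in any library of the other lines. The lines in which Vsig2 was detected were thus mostly those with the most Nrgn. Its log2 fold change was 1.68 ± 0.56 with an adjusted p of 0.154 by edgeR. Cep83, whose 3′ end is 13 bases from that of Plxnc1 on the opposite strand, had a log2 fold change of -0.06 ± 0.10 while Plxnc1 was lower in all 8 lines. Slco1a6, a relative of Slco1a5 in the same gene cluster, had 0.86 ± 0.34 (adjusted p = 0.23 by edgeR) at 19 counts at most. None of the other named neighbours was called. Nsg2 beside Cpeb4 had 0.39 ± 0.23, and Sh3bgrl2 and Elovl4 beside Gm36120 had 0.50 ± 0.17 and 0.54 ± 0.20. Beside Tph1, Sergef and Gm45629 had -0.18 ± 0.20 and 0.44 ± 0.35, beside Adssl1, Siva1, Inf2 and Akt1 had -0.05 ± 0.11, 0.32 ± 0.15 and -0.09 ± 0.12, and beside Nrgn, Siae and Msantd2 had 0.50 ± 0.15 and 0.18 ± 0.10.

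**Figure D5:**
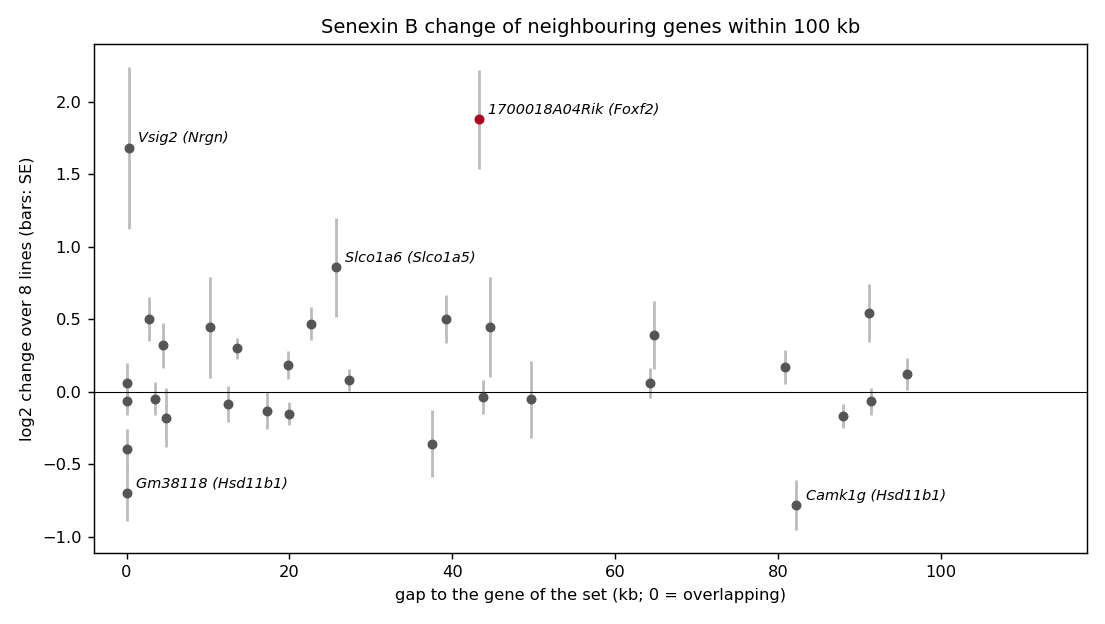
Log2 change over the 8 lines, from edgeR with the line as a block, of the 32 tested genes within 100 kb (y axis, bars of 1 SE) against their gap to the gene of the set (x axis, kb, 0 for overlapping genes). The red point, 1700018A04Rik at 1.88, is the 1 call, and labels give the 5 genes beyond 0.65 in either direction with the gene beside them.

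Genes of the same pathways were compared as 9 lists, 1 for each of the 9 protein-coding genes, holding 125 other genes of which 95 were tested over the 16 libraries. With the line as a block over the 8 lines, 2 of the 95 were called (2.11%, against 0.946% of all genes), both higher. Without the block neither was called. Since the lists were drawn up with earlier results of these data known, nothing is read from the share called. The medians of the lists lay between -0.10 and 0.11 on the log2 scale, except that of the organic anion transporters at 0.67 with 2 tested genes, against -0.005 for all genes. Apart from that list, the medians thus lay close to that of all genes.

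The first call was Cpeb2, a relative of Cpeb4 that also binds the cytoplasmic polyadenylation element, and it was higher where Cpeb4 was lower. It went from 7.86 to 10.4 CPM, from 24.0 to 43.5, from 7.29 to 23.6 and from 79.3 to 155 in wt lines 1 to 4. In the Cdk8ko lines it went from 22.1 to 32.2 CPM, from 5.39 to 9.35, from 26.4 to 57.4 and from 25 to 81.2. All 8 lines were higher, by a log2 fold change of 1.02 ± 0.15 (SE), adjusted p = 0.00653 by edgeR's quasi-likelihood test. The adjusted p stayed between 0.00386 and 0.0211 with each line left out, but the fold passed 2 in 6 of those 8 fits, falling to 0.91 on the log2 scale at the least. Per length, the ratio of Cpeb2 to Cpeb4 had a median of 0.451 over the DMSO libraries, above 1 in 1 of 8, and of 2.07 with Senexin B, above 1 in 5 of 8. Since Cpeb4 was chosen for being lower with Senexin B, the ratio is a description of the levels and no support for either change. It went from 0.284 to 0.634 in wt line 1 and from 1.26 to 7.50 in wt line 4. The most abundant genes of the list, Pabpc1 and Sympk, were not called and had log2 fold changes of -0.04 ± 0.09 and 0.10 ± 0.09.

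The second call was Pcp4 in the list around Nrgn, a small calmodulin-binding protein with the same kind of binding motif as neurogranin. It went from 0.0578 to 0.144 CPM, from 0.378 to 1.31, from 0.590 to 22.4 and from 0 to 0.231 in wt lines 1 to 4. Its Cdk8ko levels went from 0.561 to 1.32 CPM, from 0.501 to 12.3, from 0.254 to 0.789 and from 0.221 to 0.906. All 8 lines were higher, by a log2 fold change of 3.19 ± 0.54 (SE) with an adjusted p of 0.0124 by edgeR's quasi-likelihood test. Of these, wt line 1 held 1 and 2 counts and wt line 4 held 0 and 3, at or under the floor of 3 counts. With each line left out the adjusted p lay between 0.0049 and 0.0454 and the log2 fold change between 2.45, without wt line 3, and 3.67, without Cdk8ko line 1. The means of its within-line changes, at a prior count of 2, were 2.13 ± 1.95 (SD) in wt and 2.05 ± 1.52 in Cdk8ko. The largest changes were in wt line 3 and Cdk8ko line 2, at 4.97 and 4.30, which were not the lines in which Nrgn changed most. No DMSO library held more than 11 counts of it. The kinase gene Camk2d, at a mean of 1145 CPM, was not called and had a log2 fold change of -0.24 ± 0.10.

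In the list around Plxnc1, no gene was called over the 8 lines, and 1 of 15, the plexin Plxnd1, was called in the wt lines (0.346% of all genes). It went from 15.6 to 3.02 CPM, from 32.0 to 12.0, from 33.0 to 15.8 and from 115 to 41.4 in wt lines 1 to 4, a log2 fold change of -1.53 ± 0.21 (SE) with an adjusted p of 0.0315 by edgeR's quasi-likelihood test with the line as a block. In Cdk8ko it went from 252 to 126 CPM, from 86.0 to 61.4, from 14.6 to 13 and from 15.1 to 22.0, a log2 fold change of -0.31 ± 0.23 (adjusted p = 0.684). The interaction for Plxnd1 was 1.23 ± 0.34 and had an adjusted p of 0.991 by edgeR, so a difference between genotypes was not shown. Plxna1 and Sema4d, the most abundant of the list, had 0.29 ± 0.11 and 0.16 ± 0.10 over the 8 lines.

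In the other lists no gene was called, and the log2 fold changes over the 8 lines follow. Qdpr and Pts, enzymes of the tetrahydrobiopterin cofactor that Tph1 needs, had 0.05 ± 0.12 and -0.12 ± 0.09. In the glucocorticoid list, Fkbp4 and Tsc22d3 had 0.20 ± 0.08 and 0.28 ± 0.23, and H6pd, which feeds the reductase with cofactor, had -0.23 ± 0.12 at 291 to 939 counts a library. Adss, the housekeeping relative of Adssl1, had 0.17 ± 0.08 (adjusted p = 0.33 by edgeR) at a mean of 99.8 CPM, and Hprt and Paics by -0.15 ± 0.09 and -0.09 ± 0.09. Tox4, the only tested relative of Tox, had -0.04 ± 0.09, and Tox2 had 0 counts throughout. Foxp1 and Foxo1, the most abundant forkhead genes, had 0.10 ± 0.09 and 0.18 ± 0.11, and Foxf1, the closest relative of Foxf2, had at most 1 count in a library. Slco4a1, at 182 CPM the most abundant transporter of its list, had 0.49 ± 0.13 (adjusted p = 0.068 by edgeR). For Tph1, Hsd11b1, Tox, Adssl1 and Foxf2, the list around the gene thus held no other gene that was called.

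The genes whose level ran closest to each of the 10 over the 16 libraries were found by Pearson r of log2 CPM among the 14164 genes, and are given as a description, since libraries of 1 line share that line. They were Ly6d (0.91) and Lrmp (0.86) for Slco1a5, Diras2 and Esrrb (both 0.89) for Tph1, and Vsig2 (0.90) and Zfp280b (0.87) for Nrgn. They were Rnf24 (0.95) and Prx (0.93) for Hsd11b1, Spag4 (0.86) and Ankle1 (0.84) for Adssl1, and Cgas (0.92) and Fam107b (0.91) for Tox. For Plxnc1 they were Gm37780 (0.82) and Rufy1 (0.81), and for Cpeb4 Rufy1 (0.93) and Sqstm1 (0.91), so that Rufy1 stood near both. For Foxf2 they were Mrps30 (0.92) and Dynlt3 (0.89), and for Gm36120 Col26a1 (0.91) and Whamm (0.89). Over the 8 within-line changes the closest genes reached r between 0.92 (Gm26513 to Tox) and 0.99 (Zbtb43 to Hsd11b1), from 8 points and 14164 candidates. They were Doc2g (0.96) for Slco1a5, Luc7l3 (0.96) for Tph1, Proser3 (0.98) for Nrgn, Zfp945 (0.97) for Plxnc1, Rab22a (0.98) for Cpeb4, Smpdl3b (0.97) for Adssl1, mt-Tm (0.97) for Foxf2 and Gm14964 (0.97) for Gm36120.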

How the data were processed

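RNA of 8 lines, each with DMSO and with Senexin B, was sequenced in 16 single-end libraries. The authors trimmed the reads with Trimmomatic, aligned them with STAR to GRCm38 (mm10) and, per the file headers, counted them per gene with featureCounts 1.5.1 against GENCODE M13 without a strand option, and the deposited values are raw counts. Reads of overlapping or convergent genes can therefore be mixed.

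Counts were scaled by TMM, filterByExpr set the genes tested in each comparison, and edgeR 4.0.16 (R 4.3.3) fitted quasi-likelihood models with Benjamini-Hochberg adjustment over all genes tested. Errors beside edgeR log2 fold changes are SEs. Log2 CPM and within-line changes used a prior count of 2. Neighbour and pathway values are from the fit over the 8 lines with the line as a block. The block was used beside the plain fit because DMSO and Senexin B libraries with the same number in the labels deviated together, with correlations of 0.586 to 0.777 in wt and 0.773 to 0.870 in Cdk8ko, against means of -0.237 and -0.274 for different numbers. Exact permutation tests compared the genotypes on log2(CPM + 1) of line sums. Several of the edgeR fits were also run on simulated counts with known fold changes. For the genotype fits, the simulated lines shared the same mean level of each gene, unlike the real lines.

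The genes and pathway lists were chosen with earlier results of these data known. Named beside the 10 are Cdk8, Cdk19 and the markers, pathway genes that were called or otherwise the 2 most abundant and the closest paralog, up to 3 nearest tested neighbours within 100 kb, and the genes most alike in level (2) and in change (1). H6pd, Slco1a1, Slco1a4, Camk1g, Tox2 and Foxf1 were added after their values were seen. A marker and a pathway gene that this rule names are not reported here. Promoters were from RefSeq. Alternatives were an adjusted p limit of 0.1, RLE size factors, no low-count filter, DESeq2 1.42.0, 1 fit of all libraries, the block and leaving out libraries. The fits without Cdk8ko line 1, leaving out lines with the block, the block at the 0.1 limit and DESeq2 with the block were added after the data were seen. Figures were drawn with matplotlib 3.10.9.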

Additional observations from a re-analysis of the deposited data

Results flagged for a closer look

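Of 60 groups of 4 values tested by Dixon's ratio at its 95% critical value, 5 had 1 value far from the other 3, where chance gives about 1 in 20. Hsd11b1 in Cdk8ko with Senexin B stood at 4.28 log2 CPM in line 1 and at 2.02, 1.77 and 1.77 in lines 2 to 4. Cpeb4 in Cdk8ko with DMSO stood at 5.22 in line 1 against 4.51, 4.46 and 4.57. The change of Tox in wt was 2.04 in line 1 against 1.38, 1.25 and 1.34. Foxf2 in wt with DMSO stood at 6.55 in line 4 against 7.36, 7.27 and 7.27, and in Cdk8ko with DMSO at 3.48 in line 2 against 7.39, 7.35 and 7.66. The first 2 of these are both Cdk8ko line 1, and what sets these lines apart was not tested.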

How the results depend on the processing

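The mean changes of the 10 genes kept their direction, and moved by less than 1 SD between lines, in 180 of 180 values under the alternatives run. Leaving out 1 of 4 lines cannot move a mean by 1 SD, so those values could not fail that limit. The SD was also wide for some genes, at 2.63 for Gm36120 and 1.73 for Nrgn in Cdk8ko. The limit of 1 SD is therefore no measure of stability. The interaction of genotype and Senexin B for Nrgn, called by no fit, was 0.83 without and -0.13 with the replicate block. The count of genes called with Senexin B depended on the replicate block. Over the 8 lines it was 0 as planned, 1 at an adjusted p limit of 0.1, 17 with DESeq2, 134 with the replicate block, 184 with the block at the 0.1 limit and 183 with DESeq2 and the block. Without both libraries of Cdk8ko line 1 it was 5, and 178 with the block, and leaving out single libraries gave 0 to 5, with 5 without the Senexin B library of Cdk8ko line 1. With the block and each line left out it ran from 80 to 178: 131, 97, 80 and 88 without wt lines 1 to 4 and 178, 124, 105 and 114 without Cdk8ko lines 1 to 4. In wt lines it was 0, 3 without the low-count filter, 19 with DESeq2, 45 with the block, 93 at the 0.1 limit with the block and 180 with DESeq2 and the block. In Cdk8ko lines it was 0, 7 with the block, 15 at the 0.1 limit, 77 with DESeq2 and the block and 31 with the block without line 1. Genotype in DMSO gave 1 call, 32 with DESeq2 and 0 with any 1 of the 8 libraries left out. With the replicate number as a block it gave 0. That block paired separate wt and Cdk8ko lines by their number alone, so nothing is read from it. Genotype with Senexin B gave 0, but 1 at the 0.1 limit, 1 without the filter, 10 with DESeq2 and 1 in the fit of all 16 libraries, and its block fit was not run. Genotype over line sums gave 1, 24 with DESeq2 and 0 to 2 with a line left out. Pathway calls were 0 as planned and, with the block, 2, 4 at the 0.1 limit, 2 with DESeq2, 2 without Cdk8ko line 1 and 1 to 3 with a line left out (2, 2, 1, 2, 2, 2, 3 and 3). Cpeb2 was under 2-fold without wt line 3 or Cdk8ko line 4. Neighbour calls were 0 as planned and 1 in each of these block fits. The replicate block changed no call of the 10 genes in the interaction. Low counts limit Tph1, Gm36120, Pcp4, Vsig2 and 1700018A04Rik most. The cause of the differences between tools was not tested.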

Other observations

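In 2 further genes of the pathway lists all 8 lines were lower with Senexin B without a call by edgeR's quasi-likelihood test with the line as a block. Ddc, the decarboxylase that follows Tph1 in serotonin synthesis, had a log2 fold change of -0.77 ± 0.19 (SE) with an adjusted p of 0.0557, while Tph1 was higher in all 8 lines. Plxnb3, a plexin like Plxnc1, had -1.08 ± 0.31 with an adjusted p of 0.0976 at a mean of 0.729 CPM. Both were singled out after their values were seen.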
